A study of Mus musculus with 18 samples.

Results

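Gene expression was compared between 3 RNA sequencing libraries labelled iPax7 and 3 labelled Neo, across all expressed mouse genes. These are 6 of the 15 bulk libraries in a series of 18 samples, which sets cultured progenitors made with iPax3 or iPax7 beside freshly sorted embryonic, fetal and neonatal muscle cells. The embryonic and fetal cells came from My5Cre Rosa26YFP animals, so spelled in the labels, at E10.5 and E14.5, and the iPax3 cells were made like the iPax7 cells, also over 3 passages. The question named for the series is how the cultured cells relate to myoblasts and satellite cells of successive ages. The iPax7 cells were derived from mouse embryonic stem cells carrying a doxycycline-inducible Pax7 gene: Vcam1+Flk1- cells were sorted from embryoid bodies, which are aggregates of differentiating stem cells, and then grown through 3 passages in Dox and bFGF. The Neo cells were sorted fresh from hindlimb muscle of Pax7-ZsGreen reporter mice at postnatal day 3, so culture, age, strain and tissue handling all differ between the groups and cannot be told apart. The labels do not say whether the replicates came from separate cultures or animals. The p-values therefore measure a spread between libraries within groups that may be technical. That spread was estimated over all 15 bulk libraries, not from these 6 alone. Library membership followed the labels alone.

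Satellite cells are the stem cells of skeletal muscle and lie between the muscle fibre and its basement membrane. Pax3 and Pax7 are paired-box transcription factors that specify muscle progenitors. Myf5 and Myod1 commit these cells to the muscle lineage, and Myog drives the terminal differentiation in which cells leave the cycle, fuse and build sarcomeres. Freshly dissociated muscle also holds endothelial cells, fibroblasts, blood cells, pericytes and tendon cells, so a sort decides which of them are sequenced.

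Total counts ran from 15852638 to 27768610 in the iPax7 libraries and from 3557117 to 16917199 in the Neo libraries. Between 20097 and 22814 genes had a count in an iPax7 library, and between 14133 and 16357 in a Neo library. Mitochondrially encoded genes took 2.52% to 2.80% of the counts in iPax7 and 6.62% to 11.0% in Neo. Values are given as CPM, the read count scaled to library size, always in the order of replicates 1, 2 and 3. Adjusted p-values come from the quasi-likelihood test of edgeR and were adjusted by the Benjamini-Hochberg method; a gene was called where this value was under 0.05.

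Within the iPax7 group, the library labelled replicate 1 differed from the other 2. Its log2 CPM correlated at 0.827 with each of the others across genes, while iPax7 replicates 2 and 3 correlated with each other at 0.967. Genes of pluripotent stem cells were high in this library alone. Pou5f1, a defining factor of pluripotency, was at 550.3, 0.203 and 0.342 CPM in iPax7 and had no count in Neo. Nanog, another such factor, was at 511, 1.05 and 0.683 CPM in iPax7 and at 0.0707, 0 and 0 CPM in Neo. Summed over 16 pluripotency genes, the level was 5723 CPM in iPax7 replicate 1, 4.90 and 4.95 CPM in the other iPax7 libraries, and 9.03 to 13.7 CPM in Neo. The muscle genes showed the reverse order: Myog was at 1.57 CPM in replicate 1 but at 563 and 517 CPM in replicates 2 and 3. Results are therefore given with all 3 iPax7 libraries and with replicate 1 left out.

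Checked against its markers, the Neo group held little RNA of Pax7, the defining factor of satellite cells. Pax7 (chr4:139737062-139833528, minus strand) was at 0.495, 4.08 and 5.12 CPM in Neo, from 7, 25 and 17 counts, against 20.5 to 33.2 CPM in the embryonic and 32.6 to 55.3 CPM in the fetal libraries of the series. Myf5 was at 2.40, 0.816 and 6.32 CPM in Neo, against 21.4 to 35.0 CPM in the embryonic and 7.91 to 10.4 CPM in the fetal libraries. The wider list of 28 satellite cell markers was not low in Neo. It summed to 6494, 5844 and 7699 CPM there, against 1528, 7818 and 6573 CPM in iPax7, 3323 to 3823 CPM in embryonic and 5032 to 5455 CPM in fetal cells. Itgb1 and Cav1, which many other cells express, were the largest contributors in Neo. Vcam1, a surface protein used to sort satellite cells but also made by other cells, was at 110.1, 100 and 92.7 CPM, and Myog reached 104, 212 and 86.7 CPM. Markers of other cell types were plentiful in Neo. Pecam1, an adhesion protein of endothelial cells and some blood cells, was at 813, 813 and 761 CPM. Ptprc, which encodes the leukocyte surface protein CD45, was at 57.0, 137 and 55.7 CPM. The group is therefore called by its label, Neo, and no difference below is assigned to satellite cells. In bulk RNA, fewer cells of a type and less RNA per cell cannot be told apart.

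Of 17571 genes tested, 1728 (9.83%) were higher in iPax7 and 1470 (8.37%) were lower. Without iPax7 replicate 1, 1192 of 18499 genes (6.44%) were higher and 1208 (6.53%) were lower. The calls shared by both fits were 1024 higher and 1020 lower genes, and no gene was called in opposite directions. All 3 iPax7 libraries lay above all 3 Neo libraries for 4540 genes (25.8%) and below them for 2692 genes (15.3%). The median log2 fold change over all tested genes was 0.30 with all libraries and 0.17 without replicate 1, and these medians are the reference for the gene groups below. The differences were wide: 652 of the higher genes and 747 of the lower ones differed by at least 16-fold in the fit. However, 434 of the called higher genes had no count in Neo, and 124 of the lower ones had none in iPax7. The fitted folds of such genes are not measured sizes.

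**Figure D1:**
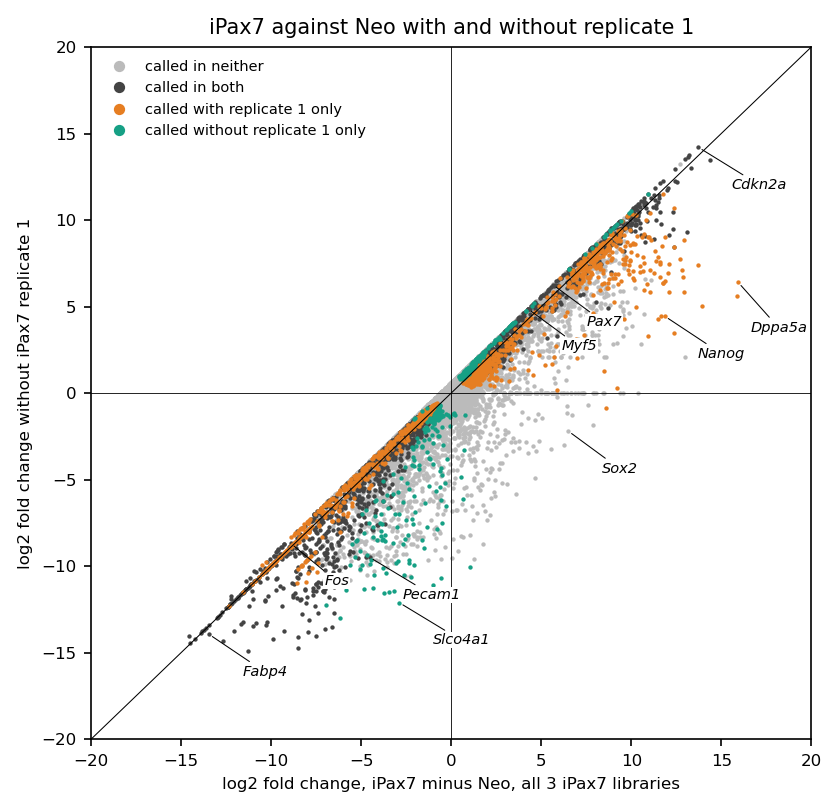
Each point is a gene tested in both fits. The x axis gives the log2 fold change of iPax7 over Neo with all 3 iPax7 libraries and the y axis the same without iPax7 replicate 1; named genes carry labels. Sox2, at 6.50 with all libraries and -2.20 without replicate 1, is among the genes far from the diagonal, while Fos lies near it at -8.91 and -8.69.

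Among the regulators of the muscle lineage, 6 of 24 tested genes were higher in iPax7 and 5 were lower, with a median log2 fold change of 0.96. Without replicate 1 the counts were 7 higher and 4 lower of 25, with a median of 0.90. Pax7 was at 0.989, 111 and 349 CPM in iPax7. Replicates 2 and 3 were far above Neo, and replicate 1 lay within its range. The log2 fold change was 5.64 (SE 1.32, adjusted p = 0.00937), or 6.26 (SE 0.76, adjusted p = 5.31e-05) without replicate 1. Reads from the Pax7 transgene and from the Pax7 gene itself cannot be told apart in these counts.

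Myf5 followed the same pattern, at 1.10, 83.2 and 87.9 CPM in iPax7, with replicate 1 again inside the range of Neo. Its log2 fold change was 4.25 (adjusted p = 0.0122) and 4.87 without replicate 1 (adjusted p = 2.84e-05). The later factors did not pass the test. Myod1 was at 0.0366, 27.1 and 43.9 CPM in iPax7 and at 15.3, 12.4 and 4.81 CPM in Neo (adjusted p = 0.6, and 0.284 without replicate 1). Myog differed by a log2 fold change of 1.43 (adjusted p = 0.411), and by 2.03 without replicate 1 (adjusted p = 0.0544). Mymk, which encodes the membrane protein myomaker required for fusion, was at 0.0733, 36.0 and 46.0 CPM in iPax7 and was counted in 1 Neo library only, at 13.2 CPM. Pax3 was low in both groups, at 1.10, 3.75 and 2.05 CPM in iPax7 and 0.424, 0 and 3.91 CPM in Neo.

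The regulators that were lower in iPax7 were Dach1, Meox2, Meox1, Lbx1 and, with replicate 1 included, Mef2a. Meox2, a homeobox factor of limb muscle precursors, was at 0.550, 0.0338 and 0 CPM in iPax7 and at 99.4, 54.4 and 126 CPM in Neo, a log2 fold change of -8.80 (SE 1.13, adjusted p = 8.05e-05), or -11.76 without replicate 1. Meox1, its relative in the somite, was at 0.0733, 3.88 and 4.95 CPM against 66.5, 35.7 and 63.8 CPM. Dach1, a transcriptional cofactor, was at 0.257, 1.05 and 1.20 CPM against 95.7, 62.3 and 82.8 CPM. For each of these 3 genes every iPax7 library lay below every Neo library, as for 1353 of all 1470 genes called lower. The call of each held without replicate 1.

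**Figure D2:**
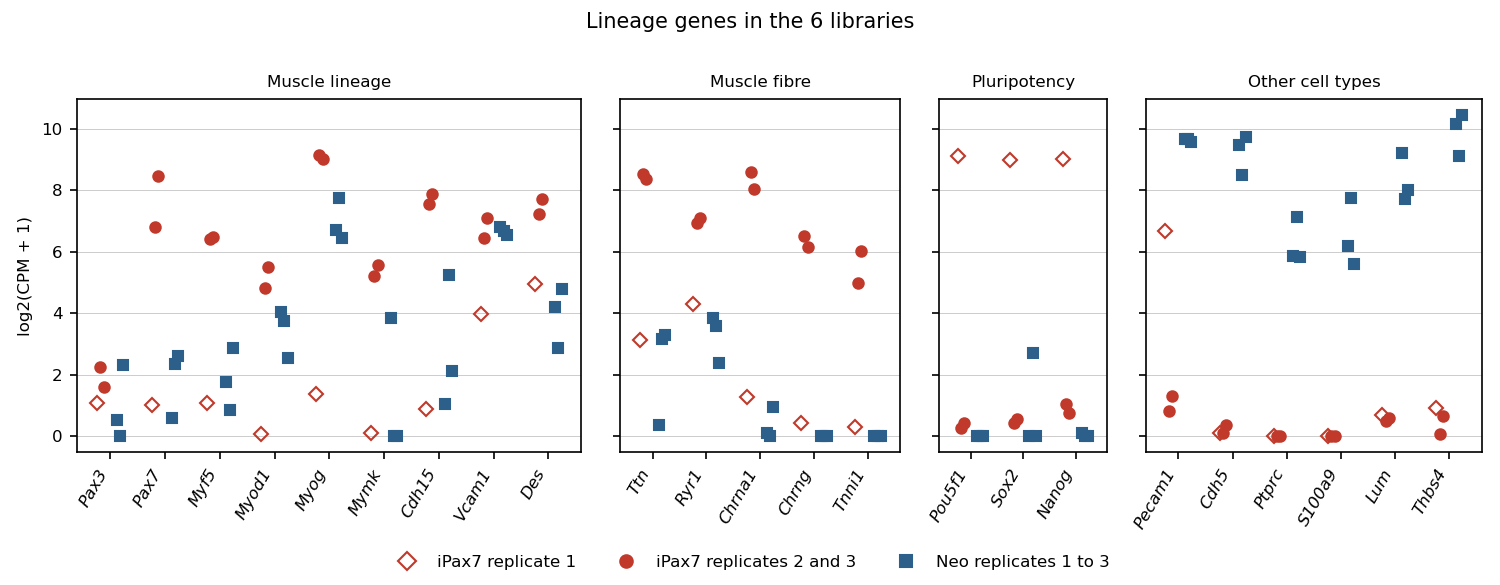
The y axis gives log2(CPM + 1) for genes that mark cell lineages, with 1 point per library in the iPax7 and Neo groups and iPax7 replicate 1 drawn apart. Pax7 and Myf5 are high in iPax7 replicates 2 and 3 only, Nanog in iPax7 replicate 1 only, and Cdh5, at 357 to 839.5 CPM, in the 3 Neo libraries.

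Of 28 genes known as satellite cell markers, 4 were higher in iPax7 and 5 lower (median -0.52), and without replicate 1 these counts were 7 and 5 (median -0.07). Most of the list was not called, 19 genes with all libraries and 16 without replicate 1. The called members went both ways, beside 9.83% higher and 8.37% lower over all genes with all libraries. Des, which encodes the muscle intermediate filament desmin, was at 29.9, 149.6 and 209 CPM in iPax7 and at 17.5, 6.20 and 26.5 CPM in Neo (log2 fold change 2.96, SE 0.69, adjusted p = 0.00842). Cdh15, the M-cadherin that joins satellite cells to fibres, was at 0.843, 184 and 234 CPM against 1.06, 36.4 and 3.31 CPM. It was called only when replicate 1 was left out (adjusted p = 0.0152, against 0.096 with it). Cd34, a surface protein shared by satellite, endothelial and stromal cells, was at 1.94, 1.01 and 2.56 CPM in iPax7 and at 243, 166 and 364 CPM in Neo (log2 fold change -7.14, adjusted p = 0.000207). Cav1, the caveolin of plasma membrane pits, and Col15a1, a collagen at the edge of basement membranes, were also lower, at log2 fold changes of -5.04 and -6.96. Without replicate 1 that of Col15a1 was -9.20. Both are also made by endothelial cells. Vcam1 did not pass the test, at 14.6, 85.6 and 135 CPM in iPax7 (adjusted p = 0.701).

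Genes of the contractile apparatus and the neuromuscular junction were higher in iPax7 wherever they were called. Of 42 tested, 17 were higher and none was lower, with a median log2 fold change of 3.23. Without replicate 1, 19 were higher, none was lower, and the median was 3.78. Their summed level was 939, 6871 and 6987 CPM in iPax7 against 1610, 1666 and 1305 CPM in Neo, so replicate 1 was below every Neo library and the other 2 were above. Leaving out members that share at least 10% of their 50-base stretches with transcripts of another gene, 15 of 31 were higher.

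Chrng, the gamma subunit of the acetylcholine receptor of immature muscle, was at 0.330, 89.8 and 69.5 CPM in iPax7 and had no count in Neo. Taken against a floor of 3 counts over the Neo group, its mean level was at least 418-fold higher (adjusted p = 0.00151). Chrna1, the alpha subunit of the same receptor, was at 1.43, 384 and 260.5 CPM against 0.0707, 0 and 0.903 CPM, a log2 fold change of 10.08 (SE 2.17, adjusted p = 0.00668), or 10.72 without replicate 1. Tnni1, the troponin I of slow and developing fibres, was at 0.220, 30.2 and 63.3 CPM and had no count in Neo. Of the genes for large muscle proteins, Ttn, encoding titin, was at 7.62, 364 and 325 CPM against 0.283, 8.0 and 8.73 CPM (log2 fold change 5.42, adjusted p = 0.00723, and 6.03 without replicate 1). Replicate 1 lay within the range of Neo for Ttn. Ryr1, the calcium release channel of skeletal muscle, was at 18.5, 120.5 and 137 CPM against 13.3, 10.9 and 4.21 CPM, with no overlap.

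The promoters of Chrng, Chrna1 and Tnni1 hold a short word that they share. The E-box CAGCTG is a sequence bound by Myod1, Myog and related factors, and it reads the same on both strands. It was found in the window from 250 bases before to 50 bases after the start of 17 of 35 contractile genes that have such a window (48.6%), against 4944 of 27025 genes in all (18.3%). A match is a description of the letters and does not show binding. The genes shown are selected examples, and of the 2 windows of Tnni1 the one with the most matches was taken. The 3 windows below are from RefSeq on GRCm38.p6, each written along its gene's strand, with CAGCTG in capitals: chr1:87205561-87205860 (plus strand), chr2:73580289-73580588 (minus strand) and chr1:135799171-135799470 (plus strand).
Chrng: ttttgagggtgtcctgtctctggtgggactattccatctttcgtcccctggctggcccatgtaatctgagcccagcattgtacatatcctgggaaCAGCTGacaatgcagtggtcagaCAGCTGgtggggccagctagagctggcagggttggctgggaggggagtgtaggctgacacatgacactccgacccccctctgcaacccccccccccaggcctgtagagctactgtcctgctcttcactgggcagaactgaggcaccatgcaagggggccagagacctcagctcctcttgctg
Chrna1: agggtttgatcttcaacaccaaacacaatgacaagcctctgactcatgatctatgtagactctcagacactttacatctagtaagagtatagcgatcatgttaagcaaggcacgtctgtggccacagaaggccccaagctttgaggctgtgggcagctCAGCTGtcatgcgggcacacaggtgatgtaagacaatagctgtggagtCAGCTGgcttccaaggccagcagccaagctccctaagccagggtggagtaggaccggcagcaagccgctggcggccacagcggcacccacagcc
Tnni1: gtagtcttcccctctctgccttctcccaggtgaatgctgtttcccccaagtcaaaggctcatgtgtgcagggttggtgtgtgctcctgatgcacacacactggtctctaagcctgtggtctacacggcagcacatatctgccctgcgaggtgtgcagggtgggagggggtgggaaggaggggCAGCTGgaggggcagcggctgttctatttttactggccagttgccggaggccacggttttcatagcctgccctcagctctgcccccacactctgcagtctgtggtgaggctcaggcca

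Hox genes, which encode the homeobox factors that give body position, were nearly silent in iPax7. Of 37 tested, 17 were lower and none was higher (median -4.75). Without replicate 1, 11 of 38 were lower and none higher (median -5.92). The summed level was 28.9, 18.4 and 39.3 CPM in iPax7 and 409, 379 and 413 CPM in Neo. Hoxa9, of the limb and posterior trunk, was at 0.733, 0.0338 and 0.285 CPM against 51.3, 69.5 and 71.0 CPM (log2 fold change -7.49, SE 0.76, adjusted p = 8.39e-06, and -8.74 without replicate 1). Hoxa10 was at 0.403, 0.169 and 0.171 CPM against 52.5, 25.8 and 63.8 CPM. The more anterior genes Hoxc4 and Hoxa5 were lower too, at log2 fold changes of -5.70 and -6.55, or -7.67 and -9.50 without replicate 1. In iPax7 they had 40, 5 and 2 counts and 16, 0 and 1 counts, so the sizes of these folds are uncertain. Among the members that share less than 10% of their sequence with another gene, 13 of 27 were lower.

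Genes listed for the transition between fetal and postnatal life were lower in iPax7 wherever they were called. Of 15 tested, 4 were lower in iPax7 and none was higher (median -1.03, and -0.74 with the same counts without replicate 1). Nfix, a factor that switches muscle from its embryonic to its fetal programme, was at 2.56, 29.8 and 25.2 CPM in iPax7 and at 249.8, 254 and 329 CPM in Neo (log2 fold change -3.85, adjusted p = 0.0104). Its relatives Nfib and Nfia were lower as well, at -3.81 and -2.85, as was Nr3c1, the glucocorticoid receptor, at -1.89. In each of these 4 genes the iPax7 and Neo groups did not overlap, as in 1353 of all 1470 genes called lower. The list did not set Neo apart from fetal cells, with sums of 1588 to 1786 CPM in Neo and 1302 to 1705 CPM in fetal cells. Nfib and Nfia overlapped between them, at 516 to 752 and 225 to 386 CPM in fetal cells and 497 to 671 and 152 to 236 CPM in Neo. Nfix and Nr3c1 were lower in fetal cells than in Neo, at 143 to 172 and 107 to 189 CPM.

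Genes listed as active in embryos and largely off after birth were higher in iPax7 wherever they were called. Of 15 tested, 6 were higher in iPax7 and none was lower, both with and without replicate 1, and the medians were 2.26 and -0.06. The summed level of the list overlapped, at 2178, 2569 and 1444 CPM in iPax7 and 2381, 2260 and 2146 CPM in Neo. The list as a whole was therefore not off in Neo. Igf2bp1, an RNA-binding protein of embryonic tissues, was at 242, 123 and 96.2 CPM against 0.849, 7.83 and 3.61 CPM (log2 fold change 5.27, SE 0.62, adjusted p = 3.32e-05). Hmga2, a chromatin protein of dividing fetal cells, was at 31.1, 197 and 136 CPM against 20.5, 21.7 and 7.52 CPM. Igf2bp3 and Igf2bp2 were higher by 2.44 and 1.68 on the log2 scale.

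Of 24 imprinted genes, which are transcribed from 1 parental copy, 3 were higher and 8 lower (median -0.89), or 5 higher and 9 lower without replicate 1 (median -0.73). The noncoding RNA Meg3 was at 233, 176 and 168 CPM in iPax7 and at 2421, 1936 and 2096 CPM in Neo (log2 fold change -3.48, SE 0.26, adjusted p = 5.12e-07). Rian, transcribed from the same imprinted cluster, was at 346, 330.2 and 295 CPM against 2368, 2034 and 1590 CPM. The replicates of each group lay close together in both genes, replicate 1 included. Slc38a4, an amino acid transporter, went the other way, at 426, 1067 and 836 CPM against 95.4, 73.6 and 68.3 CPM. Gnas, at a log2 fold change of -4.76, overlaps an antisense gene, and whether the counting used strand is not given in the sources used here.

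Cell cycle genes that passed the test were higher in iPax7, with Cdk2 as the exception. Of 39 tested, 19 were higher and 1 was lower (median 1.42), and without replicate 1 these counts were 15 and 1 (median 1.18). Their summed level was 9856, 4906 and 5813 CPM in iPax7 and 2575 to 3474 CPM in Neo. Ccne1, the cyclin E of entry into DNA synthesis, was at 238, 157 and 180.1 CPM against 6.22, 14.52 and 6.62 CPM (log2 fold change 4.39, SE 0.40, adjusted p = 3e-06). Ccnb1, a cyclin of mitosis, was at 159, 82.0 and 106 CPM against 8.91, 18.3 and 13.5 CPM. Ccnb2 and Bub1, a kinase of the spindle checkpoint, were higher by 2.87 and 3.21, or 2.16 and 2.34 without replicate 1. For the mitotic genes replicate 1 was the highest library.

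Inhibitors of the cycle and p53 targets moved both ways, with 5 of 17 higher and 4 lower (median 0.83), or 4 and 4 without replicate 1 (median 0.31). Cdkn2a (chr4:89274471-89294653, minus strand), which encodes the senescence-linked proteins p16 and p19, was at 13.8, 99.3 and 121 CPM in iPax7, from 376, 2941 and 2120 counts, and had no count in any Neo library. Its mean level was at least 613-fold higher against the 3-count floor, and at least 865-fold without replicate 1 (adjusted p = 8.97e-05 and 9.96e-06). Embryonic and fetal cells had 0 to 0.670 CPM, while the iPax3 libraries had 90.0 to 113.9 CPM. Ccng1, a p53 target, was at 433, 635 and 508 CPM against 17.6, 27.2 and 30.4 CPM. Btg2 and Gadd45b, growth arrest genes that also respond rapidly to stimulation, were lower, at log2 fold changes of -3.15 and -3.17.

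**Figure D3:**
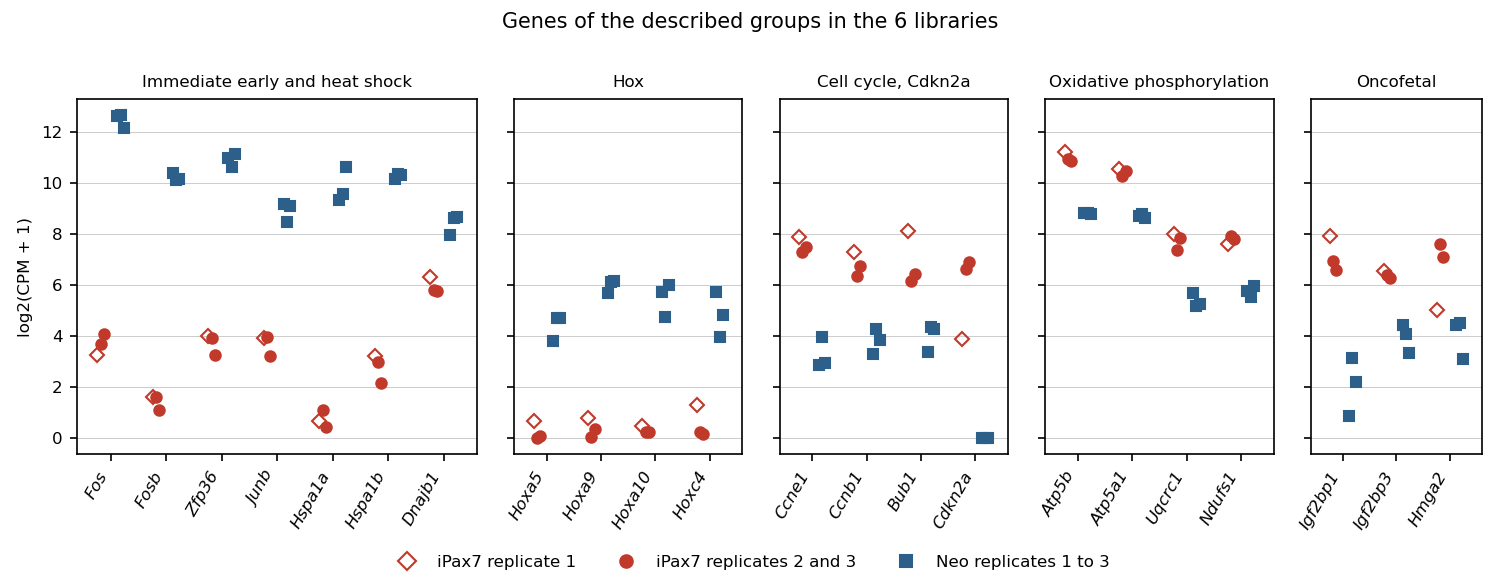
The y axis gives log2(CPM + 1) for genes of the groups described in the text, with 1 point per library in the iPax7 and Neo groups. Ccne1 and Cdkn2a lie higher in iPax7, while Fos and Hoxa9 lie lower, with no overlap between the groups.

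Immediate early genes, which are switched on within minutes of stress or stimulation, were nearly all lower in iPax7. Of 25 tested, 21 were lower and none was higher (median -4.63), and 22 were lower without replicate 1 (median -4.74). The summed level was 1021, 791 and 575 CPM in iPax7 and 26280, 25460 and 22160 CPM in Neo. The other libraries ran from 4354 to 6578 CPM in the freshly sorted fetal cells, 622 to 1249 CPM in the embryonic cells and 965 to 1103 CPM in cultured iPax3 cells. Fos, a subunit of the AP-1 factor, was at 8.54, 12.1 and 15.9 CPM in iPax7 and at 6437, 6500 and 4631 CPM in Neo (log2 fold change -8.91, SE 0.63, adjusted p = 2.12e-07). Fosb, its relative, was at 2.05, 2.06 and 1.14 CPM against 1359, 1107 and 1131 CPM. Zfp36, which marks cytokine messages for decay, was at 14.9, 14.1 and 8.48 CPM against 2039, 1591 and 2270 CPM. Junb was lower by a log2 fold change of -5.32. The replicates of each group lay close together for these genes. Cell sorting and dissociation accompany the Neo group and culture the iPax7 group, and the part of handling in this difference was not tested.

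The promoter of Zfp36 holds a CArG box, the site bound by serum response factor. Matches to this box, sought on both strands, were present in 2 of 21 immediate early genes with a window (9.52%) and in 488 of 27025 genes in all (1.81%). The cyclic AMP response element TGACGTCA, which reads the same on both strands and whose letters cannot overlap those of a CArG box, was in 3 of the 21 (14.3%) and in 549 of all genes (2.03%). The window shown is chr7:28379179-28379478 on the minus strand of GRCm38.p6, from RefSeq, with the CArG box in capitals; its first base lies 58 bases before the start.
Zfp36: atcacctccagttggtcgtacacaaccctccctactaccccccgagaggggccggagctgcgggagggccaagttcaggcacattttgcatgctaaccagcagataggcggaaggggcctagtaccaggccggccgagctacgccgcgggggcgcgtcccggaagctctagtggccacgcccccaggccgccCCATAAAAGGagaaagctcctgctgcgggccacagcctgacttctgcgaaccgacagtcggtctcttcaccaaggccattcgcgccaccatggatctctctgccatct

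Heat shock genes, which encode chaperones, were lower in iPax7 for most of those called. Of 13 tested, 2 were higher and 6 lower (median -0.28), or 1 and 7 without replicate 1 (median -1.13). Hspa1b, an inducible Hsp70, was at 8.32, 7.03 and 3.53 CPM in iPax7 and at 1131, 1331 and 1271 CPM in Neo (log2 fold change -7.62, SE 0.60, adjusted p = 7.63e-07). Its near copy Hspa1a had a log2 fold change of -10.45. Hspa1b and Hspa1a share 62.3% and 66.3% of their 50-base stretches with another gene, so the value of each is uncertain on its own. Of the 5 tested members that share less than 10%, 1 was higher and 3 were lower. Hsph1 and Dnajb1, a cochaperone, were lower by log2 fold changes of -2.90 and -2.5. The higher members were Hsp90ab1 and Hspe1.

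Signalling genes that passed the test were lower in iPax7, apart from 2 growth factor receptors or feedback genes. Of 18 Notch pathway genes, 6 were lower and none higher, both with and without replicate 1 (medians -1.37 and -1.92). Hes1 and Hey1, transcriptional targets of Notch, were at log2 fold changes of -3.62 and -4.31. Hey1 was at 4.03, 13.2 and 3.13 CPM against 124, 133 and 150.5 CPM. The ligands Jag1 and Dll4 were lower by log2 fold changes of -4.33 and -8.11, or -5.28 and -9.35 without replicate 1, and Dll4 is characteristic of arterial endothelium. Dll4 had 11, 0 and 3 counts in iPax7, so the size of its fold is uncertain. Of 31 genes of the TGF-beta, BMP and Wnt pathways, 8 were lower and none higher (median -1.45), and 1 was higher without replicate 1. Wif1, a secreted Wnt inhibitor, was at 0.0366, 0.0338 and 0.228 CPM against 102, 54.8 and 104 CPM. Bmp2, a ligand, was at 1.28, 1.28 and 1.14 CPM against 78.1, 62.7 and 83.7 CPM. Of 24 growth factor receptors and feedback genes, 13 were lower and 2 higher in both fits (medians -1.61 and -1.33). Among them Spry2 and Dusp6, feedback inhibitors of receptor signalling to ERK, were lower by log2 fold changes of -2.32 and -2.54.

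Chemokines and cytokines were also low. Of 18 tested, 12 were lower and none higher (median -5.08), or 11 without replicate 1 (median -5.59). Cxcl2, which attracts neutrophils, was at 0, 0.0338 and 0 CPM in iPax7 and at 446, 731 and 223 CPM in Neo. Il6 was at 0.476, 0.135 and 0.0569 CPM against 49.0, 85.2 and 64.7 CPM. Genes of antigen presentation and the interferon response had 4 of 22 lower and none higher (median -2.29), or 5 of 24 without replicate 1 (median -4.14). H2-D1, a class I antigen-presenting molecule, was at 14.2, 3.68 and 4.44 CPM against 302, 248 and 227 CPM.

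Matrix genes formed a block that was high in Neo. Of 25 fibrillar collagens and matrix organisers, 19 were lower in iPax7 and none higher (median -2.95), or 17 without replicate 1 (median -2.65). Their summed level was 4136, 8572 and 6873 CPM in iPax7 and 143400, 58500 and 111200 CPM in Neo. Col1a2, a chain of type I collagen, was at 655, 907 and 394 CPM against 35160, 10460 and 28910 CPM (log2 fold change -5.25, SE 0.55, adjusted p = 1.17e-05). Eln, encoding elastin, was at 5.61, 0.236 and 0.285 CPM against 2240, 2823 and 2568 CPM (log2 fold change -10.26, or -13.22 without replicate 1). Of 12 small leucine-rich proteoglycans, which decorate collagen fibrils, 8 were lower and none higher (median -5.89), or 7 lower and 1 higher without replicate 1. Lum, encoding lumican, was at 0.623, 0.405 and 0.512 CPM against 589.5, 211 and 257 CPM.

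Basement membrane genes divided, with 3 of 19 higher and 8 lower (median -1.24), or 2 and 9 without replicate 1 (median -1.34). Col4a1, the common type IV collagen chain, was at 128, 841 and 541 CPM against 4227, 3101 and 4993 CPM. Lama1, the laminin chain of early embryos, had no count in Neo and was at 86.0, 2.60 and 1.42 CPM in iPax7. Its mean was at least 236-fold higher, but at least 15.8-fold without replicate 1.

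**Figure D4:**
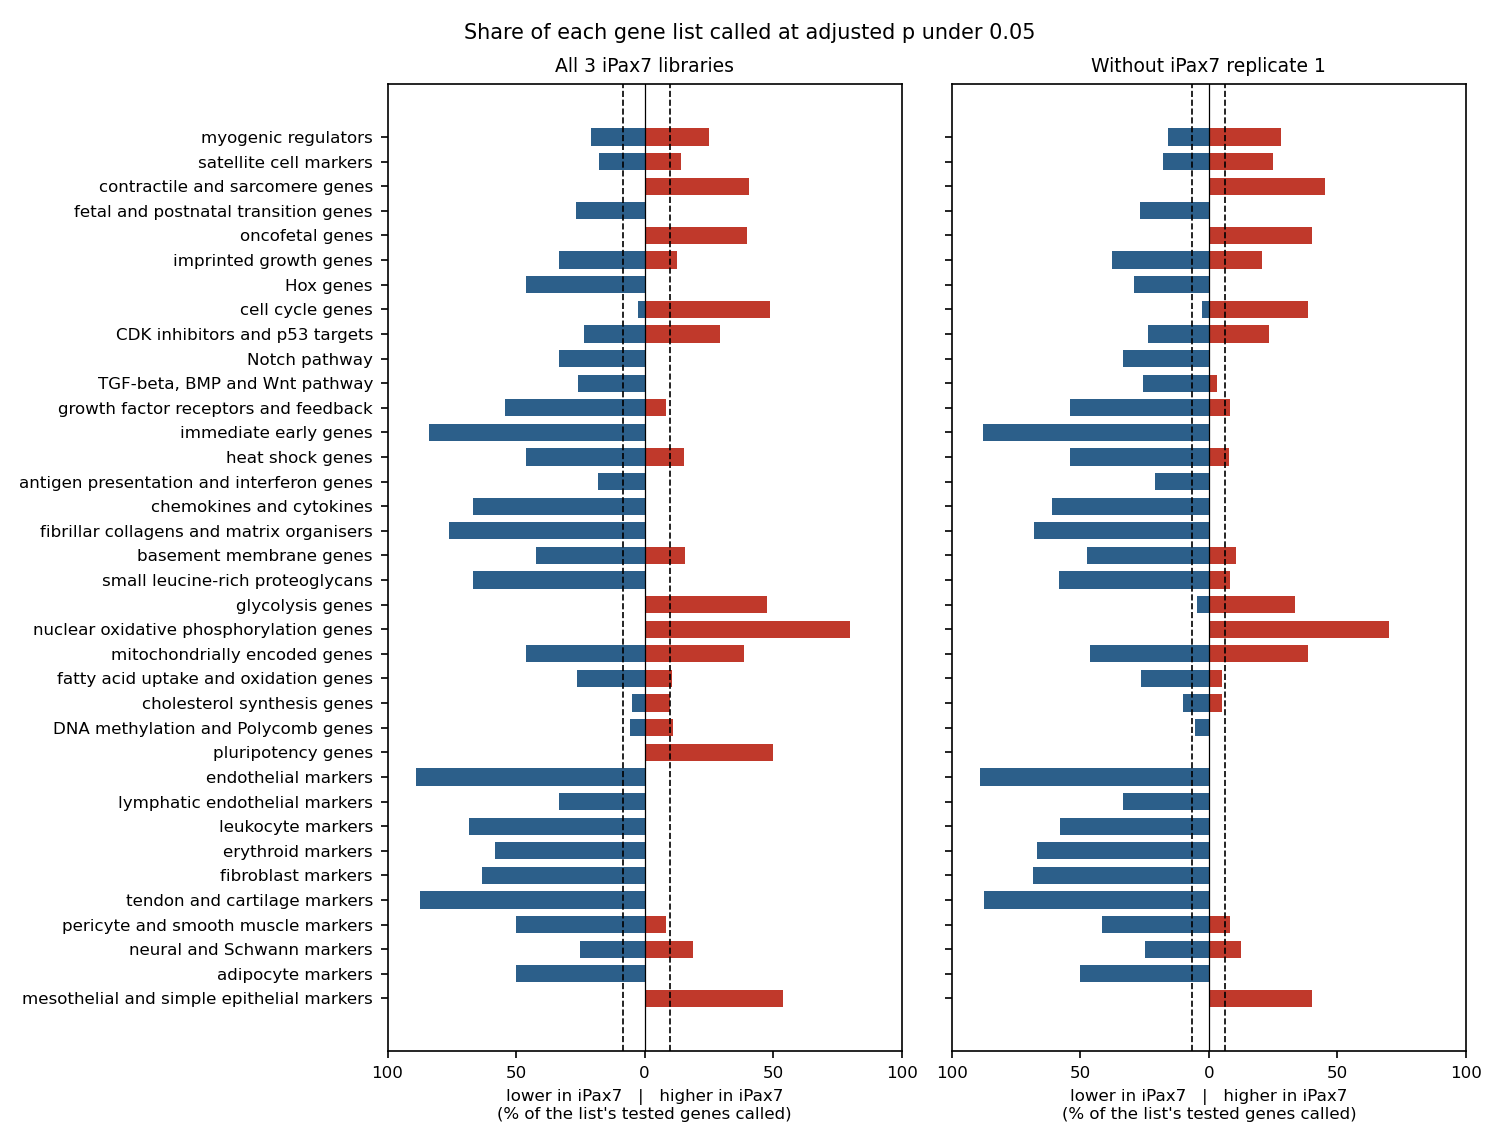
Bars give, for each gene list, the percent of tested members called higher (right) or lower (left) in iPax7, with all libraries in the left panel and without iPax7 replicate 1 in the right. Dashed lines mark the shares over all genes, 9.83% and 8.37% in the left panel. Nuclear oxidative phosphorylation genes have the longest bar to the right, 24 of 30, and endothelial markers the longest to the left, 16 of 18.

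Markers of other muscle-resident cells moved with the lower genes. Of 18 endothelial markers, 16 were lower in iPax7 and none higher, in both fits (medians -8.0 and -11.53). They summed to 183, 32.2 and 58.6 CPM in iPax7 and to 3437, 3223 and 4287 CPM in Neo. Cdh5, the cadherin of endothelial junctions, was at 0.0733, 0.0676 and 0.285 CPM against 706, 357 and 839.5 CPM (log2 fold change -12.22, SE 1.08, adjusted p = 3e-06). Emcn, a sialoprotein of capillaries and veins, had no count in iPax7. Pecam1 was at 100.3, 0.743 and 1.48 CPM in iPax7, so its level in replicate 1 differed from the other 2, and the log2 fold change was -4.54 with that library and -9.49 without it.

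Of 19 leukocyte markers, 13 were lower and none higher (11 without replicate 1). Their sums were 53.2, 7.43 and 3.24 CPM in iPax7 and 493, 1095 and 382 CPM in Neo, and 6 of the markers, among them Ptprc and S100a9, had no count in iPax7. Mmp8, a neutrophil collagenase, was at 59.3, 313 and 27.7 CPM in Neo and had no count in iPax7, at least 3307-fold lower against the floor, or at least 2095-fold without replicate 1. S100a9 was at 71.9, 215 and 47.8 CPM in Neo. Neo replicate 2 was the highest library for both. Of 12 erythroid markers, 7 were lower (8 without replicate 1), with sums of 3.26 to 7.51 CPM in iPax7 and 101, 279 and 622 CPM in Neo.

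Of 19 fibroblast markers, 12 were lower and none higher (median -6.00, and 13 without replicate 1). They summed to 197, 548 and 666 CPM against 4776, 2098 and 2811 CPM. Pdgfra, a growth factor receptor of mesenchymal cells, was at 6.30, 0.946 and 1.20 CPM against 254, 103 and 186 CPM. Of 16 tendon and cartilage markers, 14 were lower and none higher in both fits, with sums of 44.9 to 80.3 CPM in iPax7 and 5223 to 6482 CPM in Neo. Col2a1, the collagen of cartilage, was at 25.0, 8.17 and 9.68 CPM against 3072, 3222 and 2685 CPM. Thbs4, a matrix protein of tendon, was at 0.879, 0.0338 and 0.569 CPM against 1140, 547 and 1390 CPM. Of 12 markers of pericytes and smooth muscle, 6 were lower and 1 higher (5 and 1 without replicate 1). Their sums overlapped, at 604, 1218 and 1038 CPM in iPax7 and 1509, 1194 and 1934 CPM in Neo. Fabp4, a fatty acid carrier of fat and capillary cells, was at 0.366, 0.236 and 0.0569 CPM against 3334, 2392 and 2343 CPM, while 6 of 10 adipocyte markers, Adipoq and Plin1 among them, had no count in Neo. The part of these cell types in the other differences between iPax7 and Neo was not tested. Those include the matrix, signalling, cytokine, immediate early and Hox genes, and Meox1, Meox2, Dach1, Nfix, Nr3c1, Meg3 and Rian.

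Mesothelial and simple epithelial genes stood on the other side. Of 13 tested, 7 were higher in iPax7 and none lower (median 8.42), or 6 of 15 without replicate 1 (median 6.85). They summed to 1216, 576 and 555 CPM in iPax7 and to 20.5 to 54.7 CPM in Neo. Krt8, a keratin of simple epithelia, was at 73.4, 162 and 95.2 CPM against 0.141, 0.163 and 0.301 CPM (log2 fold change 9.25, SE 0.79, adjusted p = 1.96e-06). Dsp, the desmoplakin of desmosomes, was at 73.0, 216 and 264 CPM against 0.707, 4.57 and 1.20 CPM. Msln, the mesothelin of body cavity linings, was at 6.08, 89.5 and 143 CPM against 0.141, 0.326 and 0.301 CPM. These 3 genes were above Neo in all 3 iPax7 libraries, as were 1631 of all 1728 genes called higher. Replicate 1 had the highest sum over the list but the lowest level of each of these genes.

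Pluripotency genes passed the test only through replicate 1. Of 16 listed, 10 were tested and 5 were higher (median 10.18), and without replicate 1 none was called (median 1.68). Nanog had a log2 fold change of 11.86 (adjusted p = 0.00757), and 4.44 without replicate 1 (adjusted p = 0.133). Dppa5a was at 1082, 0.405 and 0.569 CPM in iPax7 and had no count in Neo. Sox2 was at 505, 0.338 and 0.455 CPM against 0, 5.55 and 0 CPM, and its log2 fold change turned from 6.50 to -2.20 when replicate 1 was left out, with neither past the test.

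Most nuclear genes for oxidative phosphorylation, by which mitochondria make ATP, were higher in iPax7. Of 30 tested, 24 were higher and none lower (median 1.81), or 21 without replicate 1 (median 1.8). Their summed level was 8085, 7136 and 8060 CPM in iPax7 and 2418, 2176 and 2259 CPM in Neo, with no overlap. Atp5b, the catalytic subunit of ATP synthase, was at 2358, 1961 and 1846 CPM against 458, 457 and 439.6 CPM (log2 fold change 2.19, SE 0.21, adjusted p = 5.65e-06). Uqcrc1, of respiratory complex III, was at 256, 167 and 229 CPM against 50.6, 35.2 and 37.0 CPM. Replicate 1 did not stand apart for these genes. Leaving out members that share at least 10% of their sequence with another gene, 21 of 25 were higher.

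Of 21 glycolysis genes, 10 were higher and none lower (median 1.47), but 7 were higher and 1 lower without replicate 1 (median 0.48). The summed level of 12540 CPM in replicate 1 was well above 3433 and 4029 CPM in the other iPax7 libraries, and Neo had 1700 to 2093 CPM. Pgk1, an enzyme that forms ATP, was at 633, 573 and 569 CPM against 161, 188 and 109.8 CPM. Pgk1, Pkm and Eno1 share 53.9%, 25.8% and 26.0% of their 50-base stretches with another annotated gene, so their values are uncertain, and without such members 5 of 15 glycolysis genes were higher.

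The genes encoded in mitochondrial DNA split into opposite sets. Of 13, 5 were higher in iPax7 and 6 lower, in both fits. The higher genes were mt-Co2, mt-Atp8, mt-Atp6, mt-Co3 and mt-Nd4l, which encode subunits of cytochrome oxidase, ATP synthase and complex I. mt-Co2 (chrM:7013-7696) was at 1588, 1115 and 1925 CPM in iPax7 and at 36.3, 49.5 and 56.9 CPM in Neo (log2 fold change 5.02, SE 1.13, adjusted p = 0.00843). mt-Co1 (chrM:5328-6872), the partner subunit, was at 8242, 8224 and 6075 CPM against 35120, 63810 and 38080 CPM (log2 fold change -2.60, adjusted p = 6.75e-06). The 5 genes made up 24.0%, 13.8% and 27.6% of mitochondrial CPM in iPax7 and 0.139%, 0.109% and 0.18% in Neo.

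That share also split the libraries of a single group. It was 20.4% and 23.7% in fetal replicates 1 and 2 but 0.0693% in fetal replicate 3, and it was low in all 3 embryonic and high in all 3 iPax3 libraries. Of the sequence of mt-Co2, 100% of the 50-base stretches also occur in transcripts of another annotated gene, as do 99.5% for mt-Atp6, 99.9% for mt-Co3 and 98.8% for mt-Nd4l, but 0% for mt-Atp8. Outside these 5 genes it was 98% for mt-Nd3, 62.2% for mt-Nd4 and 51.1% for mt-Co1. Of these, mt-Nd3 leaned the same way as the 5 genes. It was at 100 and 134 CPM in fetal replicates 1 and 2, 22.5 CPM in fetal replicate 3 and 0.294 to 12.1 CPM in embryonic cells. Its levels overlapped between iPax7, at 138, 44.6 and 120 CPM, and Neo, at 1.06, 31.8 and 56.3 CPM. How reads that match several places were counted is not given in the sources used here. Because all iPax7 libraries are on one side and all Neo libraries on the other, the split cannot be told apart from the groups.

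**Figure D5:**
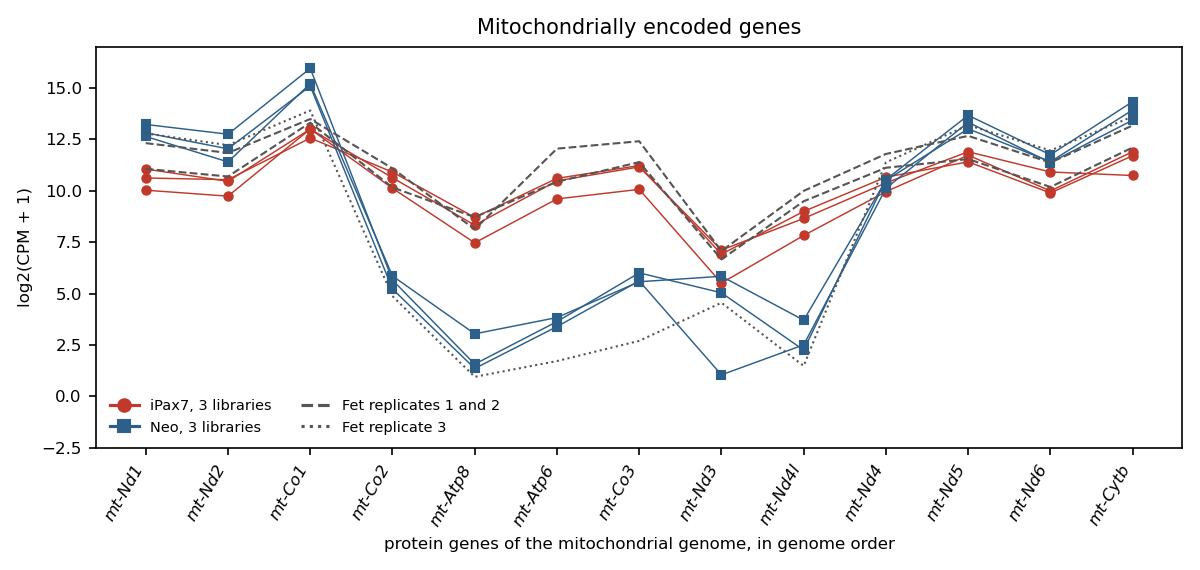
The y axis gives log2(CPM + 1) for the 13 mitochondrially encoded protein genes in genome order. Points joined by lines show the iPax7 and Neo libraries, and dashed or dotted lines without points show the fetal libraries. The genes mt-Co2, mt-Atp8, mt-Atp6, mt-Co3 and mt-Nd4l are low in Neo and in fetal replicate 3, while mt-Co1 is higher in Neo.

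By the naming rule, the 12 largest differences on the higher side were genes with no count in Neo. They included Mif, a cytokine, at 226, 54.5 and 80.1 CPM in iPax7 and no count in Neo, but 50.9% of its 50-base stretches occur in another annotated gene. Kif26b, an atypical kinesin, was at 3.19, 70.8 and 81.6 CPM and had no count in Neo, at least 408-fold higher, and shows replicate 1 below the others. Rhox5, an X-linked homeobox gene of placenta and testis, was at 38.6, 7.67 and 48.4 CPM and had no count in Neo. Bex4, Lrp11 and Cldn4, a claudin of epithelial junctions, were highest in replicate 1, at 142, 72.4 and 69.1 CPM. Other genes named above of which 10% or more of the stretches are shared are Bex4 (49.7%), Dppa5a (38.6%), Krt8 (29.7%), Ccnb1 (23.4%), Hspe1 (22.8%), Nos3 (20%), Gnas (18.6%), Igf2bp3 (18.1%), H2-D1 (12.8%), Meg3 (10.4%) and Pou5f1 (10.1%). On the lower side the largest difference was that of Cxcl2, with a log2 fold change of -14.58 and 1 count in the iPax7 group. Gimap4, of lymphoid cells, and Mpo, the peroxidase of neutrophils, had no count in iPax7.

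Leaving out replicate 1 brought in 168 higher and 187 lower genes, and 700 and 450 genes that had been called, and were tested in both fits, were no longer called. The largest additions on the higher side were nearly absent in replicate 1. Chrnd, the delta subunit of the acetylcholine receptor, was at 0.586, 33.7 and 27.8 CPM against 0, 0 and 0.903 CPM (adjusted p = 0.0647 with replicate 1 and 0.0495 without). Col19a1, a collagen of developing muscle, was at 0.110, 132 and 81.4 CPM against 2.83, 0.163 and 6.02 CPM. Among those on the lower side was Nos3, the endothelial nitric oxide synthase, at 2.35, 0.0338 and 0 CPM against 26.6, 8.81 and 39.4 CPM (adjusted p = 0.0779 and 0.0136).

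Against the iPax3 cells of the series, 13 genes differed from iPax7 at the threshold, and 40 without replicate 1. This contrast tests whether the difference from Neo is the same for both kinds of cultured cell. With 3 libraries a group and iPax7 replicate 1 unlike the others, few calls do not show that the groups are alike. Myog, at 30.4 to 96.6 CPM in iPax3, was not called without replicate 1 (log2 difference 3.01, adjusted p = 0.107). Pax7 was higher in iPax7 and Pax3 lower, at log2 differences of 9.47 and -7.16 (adjusted p = 0.0281 and 0.00496). Pax3 averaged 331 CPM in iPax3 and Pax7 0.210 CPM. Col1a2 was also higher in iPax7, by 4.15 (adjusted p = 0.00496), so that iPax7 lay between iPax3, at a mean of 36.7 CPM, and Neo.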

How the data were processed

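RNA was extracted from cultured or freshly sorted cells and sequenced as standard Illumina libraries, per the labels. Per the submitters' processing notes, the tools named were CASAVA 1.8, HISAT2 2.0.2, Subread and featureCounts 1.4.6, with the mm10 build. Which annotation release was used, whether counting was stranded and how multiply matching reads were treated are not given in the sources used here. The values are raw read counts per Ensembl gene, as the authors deposited them, with 1 table per library and no normalization. Of 47728 identifiers, 47309 were found in GENCODE M21 (GRCm38), the source of gene symbols and coordinates.

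Counts from all 15 bulk libraries, 5 groups of 3, were fitted together with edgeR 4.0.16 in R 4.3.3 (robust quasi-likelihood, TMM scaling, filterByExpr by group), and iPax7 was contrasted with Neo. The fit was repeated without iPax7 replicate 1. p-values were adjusted by Benjamini-Hochberg over all genes tested, with a threshold of 0.05. SE is the log2 fold change divided by the square root of F. CPM used TMM-scaled library totals. Where a group had no count, the fold is a lower bound from a floor of 3 counts over that group. Such bounds and the spread of low counts cover counting error only. DESeq2 1.42.0, other scalings, filters, depths and left-out libraries served as alternatives.

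The comparison and its 36 gene lists were chosen with earlier results of these data known. Lists are described by counts and medians, with no test. Genes were named by rule: the 12 largest changes each way among genes called in both fits, with separate groups and a mean of 20 CPM or more in the higher of them, clone names, pseudogenes and sex-specific genes left out; up to 4 called members of each list by adjusted p; the 6 largest changes each way called only without replicate 1; and 16 lineage genes. Other members are named where a list's call counts them. Shared sequence is the percent of a gene's 50-base stretches found in GENCODE transcripts of another gene. The test was tried on simulated counts beforehand. The single-cell samples of the series were not used here.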

Additional observations from a re-analysis of the deposited data

Results flagged for a closer look

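With all libraries, the difference from Neo was not the same in iPax7 as in iPax3 for 7 of the named genes. The contrast was iPax7 with iPax3 in edgeR's quasi-likelihood test over all genes. Pax7 and Pax3 are the induced genes themselves, with log2 differences of 9.47 (adjusted p = 0.0281) and -7.16 (adjusted p = 0.00496). Without iPax7 replicate 1 these were 10.04 and -6.83 (adjusted p = 5.96e-05 and 0.00836). Col1a2 was 4.15 higher in iPax7 (adjusted p = 0.00496) and Lama4, a laminin chain of vessels and muscle, 3.07 higher (adjusted p = 0.0281). Both were lower in iPax7 than in Neo, and iPax3 averaged 36.7 CPM for Col1a2 and 0.943 CPM for Lama4. The imprinted RNAs Meg3 and Rian were higher in iPax7 than in iPax3 by 1.68 (adjusted p = 0.0148) and 1.91 (adjusted p = 0.0217), and averaged 60 and 86.0 CPM in iPax3. Errfi1, an inhibitor of the EGF receptor, differed by -2.68 (adjusted p = 0.0217), from a mean of 220 CPM in iPax3. Without iPax7 replicate 1, Meg3, Rian and Errfi1 differed by 1.51, 1.85 and -2.64 (adjusted p = 0.0125, 0.0187 and 0.0293). Hmga2 passed only without that library, at -2.39 (adjusted p = 0.0282, against 0.0741 with it), from a mean of 867 CPM in iPax3. The iPax3 and iPax7 groups are compared with the same Neo libraries.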

How the results depend on the processing

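The counts of called genes depend on the settings. The direction of most named genes did not change with them. Most of these genes were picked by their call in these same data, so that is no separate check. With all libraries, 1728 genes were higher and 1470 lower in iPax7. DESeq2 gave 2176 and 2437, a test against a 2-fold change gave 573 and 776, and the iPax7 and Neo libraries fitted alone gave 898 and 968. Leaving out 1 library at a time gave 1019 to 1341 higher and 861 to 1208 lower genes. The higher count moved most without Neo replicate 1 (1019) or Neo replicate 2 (1041), and the lower count without iPax7 replicate 2 (959) or 3 (861). Without iPax7 replicate 1 and with the 2 groups alone, 713 were higher and 1302 lower, so that 35.4% of calls were higher, against 54.0% with all libraries. The genes called between iPax7 and iPax3 went from 13 to 40 without iPax7 replicate 1. The cause was not tested.

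DESeq2 size factors in the edgeR fit moved the median of all genes by -0.17 and gave 1383 higher and 1659 lower genes. Leaving mitochondrially encoded and haemoglobin genes out moved it by 0.18 and gave 2139 and 1263. Thinning to the shallowest library gave 1299 and 1432, and no low-count filter 1291 and 1297. Vcam1 and Sox2, which did not pass the test with all libraries, turned sign without iPax7 replicate 1. Vcam1, at -0.37 with all libraries, was 0.15, or 0.12 with the 2 groups alone, and ranged from -1.02 to 0.15 as each library was left out. Sox2 went from 6.50 to -2.20, and ranged up to 14.91 without Neo replicate 2, where it passed the test, as it did by DESeq2 at 6.33.

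The labels give each group the same replicate numbers. The deviations of same-numbered libraries from their group means had correlations of -0.0267, -0.0140 and -0.0121 across genes. Between such unlike cells, low values cannot show whether same-numbered libraries were prepared together, so pairing was not settled. A replicate block gave 1156 higher and 1167 lower genes, and 5 of 171 named genes lost their call. Depth limits the Neo group, whose shallowest library had 3557117 counts.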

Other observations

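Neural and Schwann cell markers that were called went both ways. Of 16 tested, 3 were higher in iPax7 and 4 lower. Erbb3, the neuregulin receptor of Schwann and muscle progenitor cells, was at 19.4, 33.8 and 55.0 CPM in iPax7 and at 0.354, 4.24 and 2.71 CPM in Neo (log2 fold change 3.93, adjusted p = 0.00596). Pmp22, a myelin gene that other cells also express, was lower, at 11.9, 41.0 and 48.8 CPM against 263, 355 and 259.7 CPM (log2 fold change -3.11). Of 19 genes for fatty acid uptake and oxidation, 2 were higher and 5 lower. Cd36, a fatty acid receptor, was at 0.0366, 3.78 and 4.38 CPM against 475, 373 and 574 CPM, and Gpihbp1, which anchors lipoprotein lipase to capillaries, had no count in iPax7. Acadm, a mitochondrial enzyme of the oxidation itself, was at 257, 192 and 208 CPM against 98.5, 84.0 and 74.0 CPM.

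Of 20 cholesterol synthesis genes, 2 were higher and 1 lower, near the shares over all genes. Lss, the lanosterol synthase, had a log2 fold change of 2.95 (adjusted p = 0.00251), or 2.15 without iPax7 replicate 1, and Cyp51, a later step, had -1.19 (adjusted p = 0.0199). Among 18 DNA methylation and Polycomb genes, Dnmt1 and Ezh2 were higher and Tet3 lower, at 1.42, 1.39 and -2.05, which is again near the shares over all genes. Dnmt1 and Ezh2 were no longer called without iPax7 replicate 1 (adjusted p = 0.0741 and 0.174).

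Some genes were well counted in 1 library and absent from another of the same group. Between Neo replicates 1 and 2, 119 of 8307 genes at 20 CPM or more in either had no count in the other (1.43%), between iPax7 replicates 2 and 3 none of 7804 did, and between embryonic replicates 2 and 3 it was 273 of 8152 (3.35%).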
